A study of Mus musculus with 12 samples.

Results

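Mouse colorectal cancer tissue that had grown in fatty liver was compared with the same kind of tissue grown in healthy liver, with all of these mice given anti-VEGF. The 6 arrays were taken by their titles, 3 from each liver, out of 12 arrays in the series. The other 6 came from vehicle-treated mice with tumours in the same 2 kinds of liver. Cancer cells had been injected into the livers, the design text gives 3 mice per group, and the titles call the replicates biological. Anti-VEGF is an antiangiogenic treatment against vascular endothelial growth factor, and both groups of this comparison carried it. The labels name no tumour line, diet, strain, age or sex, so it is not known here how the livers became fatty or how closely host and tumour cells match. Whole-transcript Affymetrix arrays were used, and each value is a deposited log2 expression level, in which a difference of 1 is a doubling. Of 22180 genes with a single symbol, 13286 were tested, those above 4.93 on 3 or more of the 12 arrays. That limit is the median of all deposited values, and a level below it is called background here, because no detection call was used.

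Liver metastases of colorectal cancer mix tumour cells with macrophages, fibroblasts, vessels and other host cells, and an array of the whole tissue sums their RNA. VEGF drives the growth of tumour vessels, and its blockade is used against colorectal cancer. Fatty liver supplies lipid and inflammatory signals to cells that lodge in it, while growth of the tumour cells themselves depends on making ribosomes, nucleotides and proteins and on adhesion to matrix. In tissue of this kind, fewer cells of a type and less RNA per cell cannot be told apart.

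Genes for making ribosomes (44 of 55 measured), loading transfer RNAs (16 of 18) and supplying nucleotides (25 of 33) fell in fatty liver, as did targets and factors of the growth regulator YAP (21 of 33), actin genes (16 of 31), basement membrane genes (13 of 25) and Hedgehog pathway genes (7 of 13). Over all tested genes 27.6% fell and 18.2% rose. These counts treat the nearly alike healthy liver arrays as separate samples, which cannot be shown from the values. Nearly all of these falls lost their call when near-identical arrays were averaged, as described below. The median falls of these lists lay between 0.38 and 0.6 on the log2 scale, and the lowest counts with 1 array left out were 8 for the transfer RNA synthetases, 15 for the nucleotide genes and 8 for the basement membrane genes. Genes of the lysosome (35 of 43), of its proton pump (16 of 20) and of the plasminogen and coagulation systems (8 of 14) rose, as did the inducible heat shock proteins Hspa1a and Hspa1b.

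In limma's moderated test with Benjamini-Hochberg adjustment, 2412 genes (18.2% of those tested) were higher in fatty liver and 3672 (27.6%) were lower at an adjusted p of 0.05, together 6084 (45.8%). The median difference over all tested genes was -0.13. All 3 fatty liver arrays lay above all 3 healthy liver arrays for 2904 genes (21.9%) and below them for 4864 genes (36.6%). The rises were larger than the falls: among called genes the median rise was 1.03 and the median fall 0.53. Differences of at least 2 were found for 607 genes that rose and for 0 that fell, and the largest fall was 1.99. The healthy liver mean was at background for 304 of the rises (12.6%) and the fatty liver mean for 3.35% of the falls, and a difference from such a mean can understate the change.

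The spread between arrays was unequal. Across genes, the 3 healthy liver arrays differed from each other with an SD of 0.148 to 0.156, whereas the fatty liver arrays differed by 0.402 to 0.616. In the vehicle groups, whose spread enters the same fit, arrays 1 and 3 differed by 0.163 in each liver, and array 2 stood apart from them (0.634 and 0.636 in healthy liver, 0.405 and 0.391 in fatty liver). Whether near-identical arrays stand for separate mice cannot be shown from the values. When the 3 healthy liver anti-VEGF arrays were averaged into 1 sample, and vehicle arrays 1 and 3 of each liver likewise, 487 genes (3.67%) were higher and 23 (0.173%) lower. Values of that fit are given below as "with averaging". In it healthy liver under anti-VEGF is a lone sample that is assumed to vary like the other 3 groups, and 4 residual degrees of freedom remain. Most named genes lost their call in that fit, among them Acod1, Arg1, Btg2, Atf3, Ceacam1, Cavin2 and Ccbe1, which are given below without its value. Averaging only the healthy liver anti-VEGF arrays gave 1057 rises and 287 falls, and averaging only the vehicle pairs gave 2196 and 3046. Fatty liver array 3 lay nearest to the healthy liver arrays. Its median difference from the healthy liver mean was 0.77 over the genes called higher and -0.33 over those called lower, against 1.11 and -0.67 on array 1 and 1.17 and -0.59 on array 2. It was on the side of the call for 99.6% of the rises and 99.8% of the falls. Leaving out fatty liver array 3 raised the count of falls to 4825, and leaving out fatty liver array 1 or 2 lowered it to 2410 or 2353. Without healthy liver array 1, 2 or 3 it was 2410, 2314 or 2312.

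**Figure D1:**
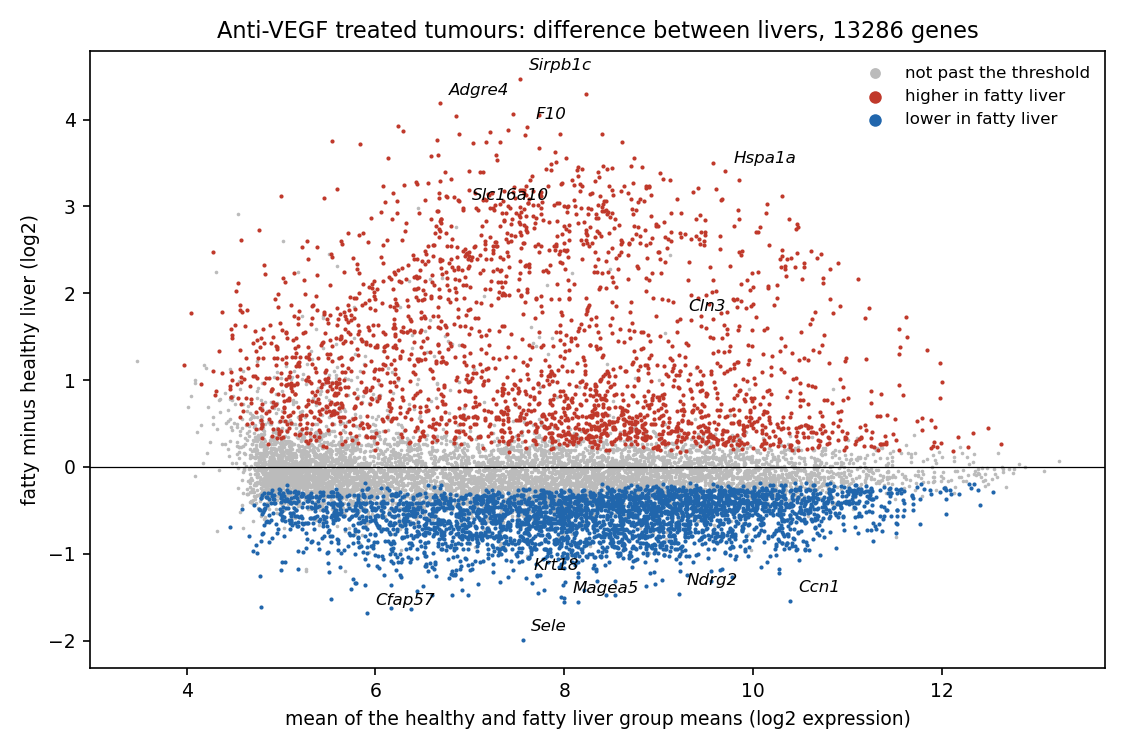
Each point is 1 of the 13286 tested genes, with the mean of both group means (log2 expression) on the horizontal axis and the fatty minus healthy liver difference (log2) on the vertical axis; red and blue mark genes past an adjusted p of 0.05. Rises reach 4.47 for Sirpb1c, while no fall passes 1.99, the value of Sele.

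The share of genes called lower grew with the level of the gene. With the genes ordered by mean level into 5 equal groups, 10.8%, 25.1%, 31.5%, 35.2% and 35.6% were lower from the lowest group to the highest. The share called higher was 12.3% in the lowest group and between 18.8% and 20.4% in the others.

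The label of colorectal cancer was set against marker genes. Krt8 and Krt18, a keratin pair of simple epithelium, were measured, but Epcam, Krt19, Krt7, Krt20, Cdx1, Vil1, Cldn7, Esrp1, Gpa33 and Phgr1 were at or near background on all 6 arrays, between 3.24 and 4.97. Vim, the intermediate filament of mesenchymal cells, was between 13.02 and 13.12. Krt18 was 8.36, 8.1 and 8.23 in healthy liver and 6.82, 7.1 and 6.93 in fatty liver. The groups did not overlap, and Krt18 fell by 1.28 (SE 0.23, adjusted p = 0.0018). Krt8 fell by 0.87, from 10.77 to 10.82 down to 9.75 to 10.04. Of the 9 tested genes of the colorectal and epithelial list 3 fell and 2 rose, where 27.6% of all tested genes fell and 18.2% rose. The rises were Ceacam1, an adhesion molecule of epithelium and leukocytes, by 3.43 (6.12, 6.03 and 6.13 against 10.27, 9.87 and 8.44), and E-cadherin (Cdh1) by 1.61 (5.88, 5.66 and 5.75 against 8.03, 8.12 and 5.97). The call of Cdh1, 1 of the 2 rises, was lost without healthy liver array 2 or 3 or fatty liver array 1 or 2. The hepatocyte marker Alb was below background on every array (3.35 to 3.71). Of the 7 tested hepatocyte genes 3 fell and 1 rose, with 0 to 3 falls and 0 to 2 rises when 1 array was left out. The falls included Apoc3 (0.4) and Apoa1 (0.35).

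Markers of other cells moved with the liver, and their part in the results below was not tested. Of 16 macrophage markers, 15 rose, and the mean of the list was 8.95, 8.96 and 9 in healthy liver against 11.02, 11.24 and 10.93 in fatty liver. Neutrophil markers differed among the fatty liver arrays, with list means of 9.86, 7.43 and 6 against 5.44 to 5.53 in healthy liver, and 3 of 8 rose (7 without fatty liver array 3). Of 12 T cell markers 9 rose, and 5 did without healthy liver array 1 or 2 or fatty liver array 1 or 2. Fatty liver array 1 had the highest endothelial and fibroblast list means, 7.19 and 8.85, against 5.94 and 7.71 on array 2 and 5.86 and 7.91 on array 3, with 5.64 to 5.76 and 7.61 to 7.65 in healthy liver. Of 20 interferon response genes, 19 rose.

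The Y-linked genes also separated the livers under anti-VEGF. The median difference of the 3 tested genes was 2.76, against 0.4 in the vehicle comparison. Eif2s3y was 4.76, 5.18 and 4.96 in healthy liver and 8.32, 8.29 and 7.23 in fatty liver, and Uty was 5.39 to 5.54 against 8.27, 8.4 and 8.03. Neither passed the test (adjusted p = 0.0861 and 0.0727), whose SEs of 1.32 and 1.16 pool the spread within all 4 groups. Xist was between 3.89 and 4.32 on all 6 arrays, with a difference of -0.1, against 1.58 in the vehicle comparison. The labels give no sex, and the part of these values in the results was not tested. Vegfa, the target of the treatment, was 9.75, 9.7 and 9.71 in healthy liver and 9.7, 10.1 and 9.93 in fatty liver (difference 0.19, adjusted p = 0.213).

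Among single genes, the largest fall was that of Sele, which encodes E-selectin, an adhesion molecule that captures leukocytes on inflamed endothelium. Its level was 8.47, 8.62 and 8.58 on the healthy liver arrays and 6.56, 7.15 and 5.98 on the fatty liver arrays. The groups did not overlap, and the lowest value was on fatty liver array 3. Sele fell by 1.99 (SE 0.29, adjusted p = 0.000514), a 3.98-fold difference, and with averaging the adjusted p was 0.0852. Icam1 was up by 2.61 and Vcam1 by 2.25, both receptors for leukocyte integrins. They belong to a list of 21 endothelial adhesion and permeability genes, of which 3 rose and 4 fell. Over all tested genes 18.2% rose and 27.6% fell.

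Genes of the pathway under treatment were followed in 17 VEGF and angiopoietin ligands and receptors, of which 2 rose and 3 fell. Both shares are below the 18.2% higher and 27.6% lower of all tested genes. Kdr, the main VEGF receptor of endothelium, was 5.28, 5.32 and 4.96 in healthy liver and 9.1, 8.14 and 7.69 in fatty liver, a rise of 3.12 (adjusted p = 0.00785). Nrp1, its coreceptor, rose by 2.78, while the ligands Vegfd and Vegfb fell by 1.06 and 0.59. The receptor gene Flt1 differed by 0.64 without passing (adjusted p = 0.531). Of 21 endothelial adhesion and permeability genes, 3 rose and 4 fell, again below the shares of all tested genes. Pecam1, found on endothelium and leukocytes, was 6.35, 6.26 and 6.3 against 8.94, 8.96 and 9.26, a rise of 2.75. Of the 15 endothelial markers 2 rose and 0 fell, also below those shares.

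Cfap57, a protein of the ciliary axoneme, fell evenly. Its values were 6.77, 6.68 and 6.83 in healthy liver and 4.95, 5.3 and 4.97 in fatty liver, close to background. It fell by 1.68 (SE 0.12, adjusted p = 1.45e-05), and the adjusted p with averaging was 0.0287. Magea5, a gene of the cancer-testis antigen family, was 8.78, 8.84 and 8.7 against 7.14, 7.35 and 7.17. Here too every fatty liver array was lower, and Magea5 fell by 1.55 (SE 0.17, adjusted p = 8.6e-05, and 0.0376 with averaging). Ndrg2, a gene linked to differentiation and growth restraint, was 9.91, 9.92 and 9.99 against 8.22, 8.59 and 8.64. It fell by 1.46 (SE 0.14, adjusted p = 4.53e-05, and 0.0351 with averaging).

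The remaining large falls covered unlike functions. Osr2, a zinc finger transcription factor of connective tissue development, was 9.12, 9.26 and 9.17 in healthy liver and 7.46, 7.89 and 7.76 in fatty liver. Cyp27b1, which makes active vitamin D, was 7.61, 7.67 and 7.86 against 6.03, 6.61 and 6.09. Cryab, a small heat shock protein, was 8.83, 8.69 and 8.62 against 6.74, 7.66 and 7.24. None of these 3 genes overlapped between livers, and they fell by 1.48, 1.47 and 1.5.

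Receptors of neural and inflammatory signals were among the same group. Tacr2, a tachykinin receptor, was 8.94, 8.91 and 8.92 in healthy liver and 6.55, 7.66 and 7.93 in fatty liver, so fatty liver array 1 carried the lowest value. Chrna1, the alpha subunit of the muscle acetylcholine receptor, was 7.18, 7.19 and 7.19 against 5.42, 6.02 and 6.02. Il1r1, the receptor of interleukin-1, was 9.58, 9.46 and 9.61 against 8.47, 8.04 and 8.04. The falls were 1.55 for Tacr2 and 1.37 for both Chrna1 and Il1r1, and none passed with averaging.

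Cavin2, a structural protein of caveolae, fell by 1.51, from 8.77, 8.71 and 8.77 to 7.14, 7.81 and 6.77. Ccbe1, which is needed for lymphatic vessel growth, fell by 1.62, from 6.78, 7 and 7.14 to 5.37, 5.54 and 5.16. Tmem74, a membrane protein, fell by 1.63, from 7.14, 7.25 and 7.19 to 4.92, 5.78 and 6. The largest falls also held Hao1 (1.52), Lrrn4cl (1.47), Atp13a4 (1.47), Spn-ps (1.42) and Ociad2 (1.36), with Hao1, a peroxisomal oxidase, at background in fatty liver.

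**Figure D2:**
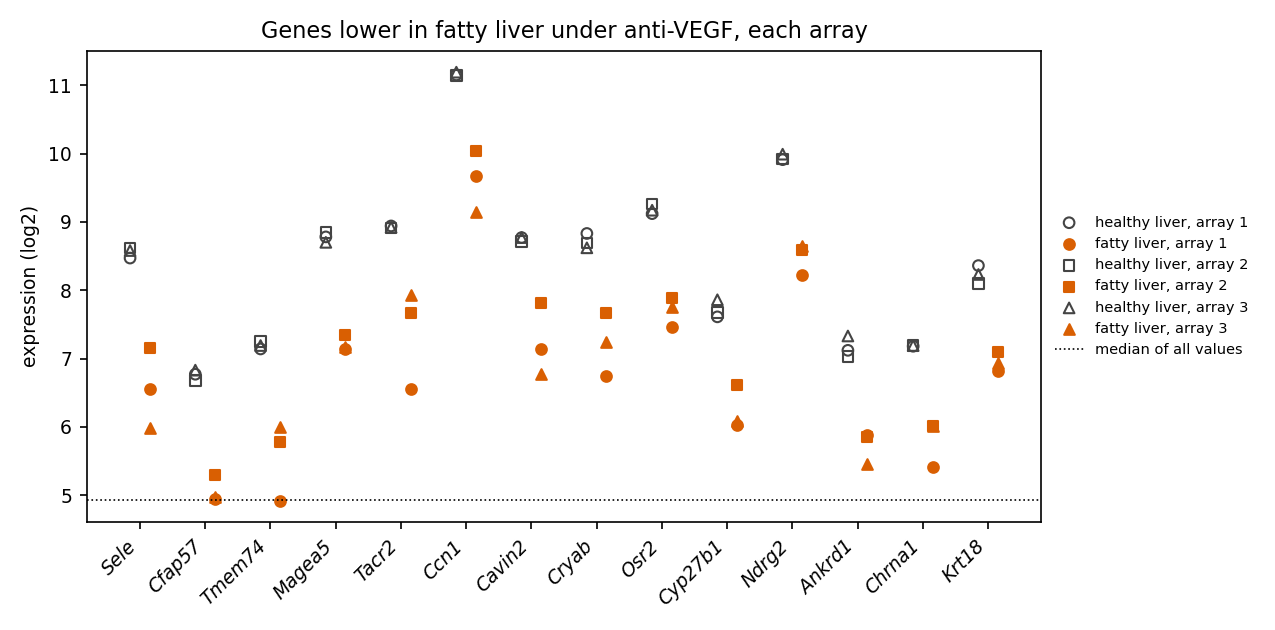
Expression (log2) of 14 genes that were lower in fatty liver is plotted for each healthy liver array (open) and each fatty liver array (filled), with array number by marker shape and the median of all values, 4.93, as a dotted line. For every gene shown the 3 filled points lie below the 3 open ones, and the filled points spread further, as for Tacr2 (6.55 to 7.93).

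Targets and factors of YAP, the transcriptional coactivator that works with TEAD factors and responds to cell stretch and density, mostly fell. Ccn1 and Ankrd1 are classic targets of the pair. Their promoters are shown because they carry the core letters of the TEAD motif, searched as GGAATG on both strands and given in capitals below. Each sequence is the 250 bases before the start site, read 5′ to 3′ on the gene's strand, from RefSeq (GRCm38.p6). Ankrd1 lies at chr19:36119845-36120094 on the minus strand with matches at -210 and -123, counted from the start site to the first base of the match. Ccn1 lies at chr3:145649986-145650235 on the minus strand, with a match at -103 on the opposite strand, which reads CATTCC here.
Ankrd1: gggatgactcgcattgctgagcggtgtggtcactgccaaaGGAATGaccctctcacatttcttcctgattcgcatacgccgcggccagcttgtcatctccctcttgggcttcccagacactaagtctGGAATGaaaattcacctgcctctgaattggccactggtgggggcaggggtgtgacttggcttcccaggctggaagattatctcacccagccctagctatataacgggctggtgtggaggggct
Ccn1: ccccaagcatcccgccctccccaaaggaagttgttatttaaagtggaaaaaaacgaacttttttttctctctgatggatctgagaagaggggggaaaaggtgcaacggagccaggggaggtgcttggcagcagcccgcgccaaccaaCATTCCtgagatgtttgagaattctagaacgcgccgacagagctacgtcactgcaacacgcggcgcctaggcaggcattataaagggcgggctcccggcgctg

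The letters occurred in the 300-base window (250 before and 50 after the start site) of 14 of the 26 YAP and TEAD genes with a window (53.8%), against 14.1% of 10386 tested genes with one. The list holds known targets and also factors of the pathway such as Yap1, Wwtr1 and Tead3, and a match is a description of these letters only.

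Of 33 measured YAP and TEAD genes, 21 fell and 2 rose, with a median difference of -0.6 and medians of -0.64, -0.88 and -0.25 on fatty liver arrays 1, 2 and 3. Ccn1, a matrix-associated signalling protein, was 11.15, 11.14 and 11.19 in healthy liver and 9.67, 10.03 and 9.14 in fatty liver. Ccn1 fell by 1.54 (SE 0.2, adjusted p = 0.000294), and its adjusted p with averaging was 0.0735. Ankrd1, an ankyrin repeat protein of muscle and stretched cells, was 7.12, 7.03 and 7.33 against 5.88, 5.85 and 5.45. No array overlapped, and Ankrd1 fell by 1.43 (SE 0.18, adjusted p = 0.000197). It was the single gene of the list that passed with averaging (adjusted p = 0.0435). Tead1, a TEAD factor itself, fell by 0.9, from 9.37, 9.36 and 9.4 to 8.52, 8.19 and 8.73. Crim1 fell by 0.85. The rises were Gadd45b (1.77), a stress-induced growth arrest gene, and the kinase Nuak2 (1.58).

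Actin cytoskeleton genes and targets of serum response factor, which is switched on by actin assembly, moved likewise: 16 of 31 fell and 2 rose (1 without healthy liver array 2), with a median of -0.4. Fhl2, a LIM-domain partner of that factor, was 8.57, 8.43 and 8.67 in healthy liver and 7.5, 7.57 and 7.47 in fatty liver, a fall of 1.04. Acta2, smooth muscle actin and a marker of activated fibroblasts, was 10.67, 10.82 and 10.76 against 9.75, 9.98 and 9.49, a fall of 1.01. Tgfb1i1, an adaptor at focal adhesions, was 8.33, 8.45 and 8.43 against 7.38, 7.47 and 7.56. Both groups were tight for Tgfb1i1, which fell by 0.93 (SE 0.1, adjusted p = 9.59e-05, and 0.0463 with averaging). Pdlim7 fell by 0.76.

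Integrins and focal adhesion proteins, which couple actin to matrix, gave 13 falls and 5 rises (8 without fatty liver array 3) among 29, with a median of -0.48. The scaffold Bcar1 fell by 0.94, Tns2 by 0.92, vinculin (Vcl) by 0.73 and the laminin receptor subunit Itga6 by 0.68. Rises were those of Itga9 (2.41) and Tns3 (2.07).

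Among matrix genes, 13 of 25 for basement membrane and elastic matrix fell (8 without fatty liver array 1 or 2), with a median of -0.56. Their 2 rises became 1 when any healthy liver array, or fatty liver array 1 or 2, was left out. Nid1, which links laminin to collagen IV, was 10.38, 10.45 and 10.34 in healthy liver and 9.57, 9.34 and 9.4 in fatty liver, a fall of 0.95. The perlecan gene Hspg2 fell by 0.77, Col18a1 by 0.78 and the TGF-beta binding protein Ltbp1 by 1.01, while Emilin1 rose by 1.27. Of 27 genes for fibrillar collagens and their assembly, 13 fell and 2 rose (0 without any 1 of the healthy liver arrays or fatty liver array 1, and 1 without fatty liver array 2 or 3). The list median was -0.49, with -0.66 on fatty liver arrays 1 and 2 and -0.08 on array 3. Col5a3 was 8.33, 8.42 and 8.37 against 7.57, 7.43 and 7.66 and fell by 0.82, Adamts14, a procollagen protease, fell by 0.9, and Serpinh1, the collagen chaperone, fell by 0.67.

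Junction genes were mixed, with 11 of 25 falling (7 without fatty liver array 2) and 4 rising. Ocln, a tight junction protein, was 7.61, 7.71 and 7.7 in healthy liver and 6.61, 6.52 and 6.65 in fatty liver, a fall of 1.08 (SE 0.13, adjusted p = 0.000155). Cldn12 fell by 1.02, while F11r, a junctional adhesion molecule also carried by leukocytes, rose by 3.54. Of 12 protocadherins, 6 fell (3 without fatty liver array 1 or 2), and the list median of -0.82 was made of -1.22, -0.84 and -0.03 on arrays 1, 2 and 3.

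Ribosome biogenesis genes act in the nucleolus to make and join ribosomal RNA and protein. Of 55 measured genes 44 fell and 0 rose, with a median of -0.52, and no array left out moved the count by more than 1.5 times (32 to 48). The medians on fatty liver arrays 1, 2 and 3 were -0.7, -0.54 and -0.25. None of the 55 passed with averaging. Nop16, a nucleolar protein, was 10.33, 10.46 and 10.53 in healthy liver and 9.58, 9.63 and 9.77 in fatty liver. It fell by 0.78 (SE 0.12, adjusted p = 0.000868), with no overlap of the arrays. Rrp9 and Utp4, parts of the small-subunit processome, fell by 0.77 and 0.66. Imp3, of the same machinery, was 11.4, 11.4 and 11.39 against 10.67, 10.96 and 10.84, a fall of 0.57. Esf1, a ribosomal RNA processing factor outside the list, was 9.66, 9.63 and 9.52 against 8.69, 8.65 and 8.82. Esf1 fell by 0.88 (SE 0.09, adjusted p = 7.68e-05), and it passed with averaging (0.0441).

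Protein components of the ribosome were called less often in these fits, a difference that was not tested. Of 64 cytosolic ribosomal protein genes 13 fell (7, 7 and 6 without healthy liver arrays 1, 2 and 3) and 1 rose, a call lost without fatty liver array 2 or 3, any healthy liver array, or any vehicle array other than fatty liver array 2. Their median of -0.14 was close to the -0.13 of all genes. Rpl17 fell by 0.71 and Rps7 by 0.62. Of 68 mitochondrial ribosomal protein genes 26 fell (16, 15 and 14 without healthy liver arrays 1, 2 and 3, and 14 without fatty liver array 1) and 0 rose, with a median of -0.23.

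Aminoacyl-tRNA synthetases, which load amino acids onto transfer RNAs, fell in 16 of 18 cases with a median of -0.4. The count was 10, 9 and 8 without healthy liver arrays 1, 2 and 3 and 8 without fatty liver array 1 or 2. Sars was 10.71, 10.76 and 10.79 in healthy liver and 10.23, 10.05 and 10.26 in fatty liver, a fall of 0.58, while Kars fell by 0.55, Cars by 0.45 and Nars by 0.3. Of 45 translation initiation factors 23 fell, with a median of -0.28. Without healthy liver arrays 1, 2 and 3 the count was 12, 13 and 13, and without fatty liver array 1 or 2 it was 15. Eif1a fell by 0.54 and Eif6, which also acts in ribosome maturation, by 0.52. The single rise was that of Eif5a2 (1.72), at background in healthy liver, and a second gene rose without fatty liver array 1 or 3 or vehicle array 2 of fatty liver.

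Nucleotide and one-carbon metabolism, which supplies purines, thymidylate and methyl groups, fell in 25 of 33 genes (15 without fatty liver array 1 or 2) and rose in 0, with a median of -0.56. Aldh1l2, a mitochondrial folate enzyme, was 7.38, 7.44 and 7.45 in healthy liver and 5.6, 6.16 and 6.67 in fatty liver. It fell by 1.28 (SE 0.24, adjusted p = 0.00226), with the smallest difference on fatty liver array 3. The folate enzyme Mthfd1 fell by 0.78, the serine synthesis enzyme Psat1 by 0.61 and Adss, of AMP synthesis, by 0.58. Myc, the growth regulator that acts upstream of many of these genes, was 11.78, 11.68 and 11.72 against 10.87, 11.03 and 11.05, a fall of 0.74 (SE 0.14, adjusted p = 0.00238).

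The counts for cell division genes depended on fatty liver array 3. Of 38 DNA replication genes 10 fell and of 39 mitosis genes 13 fell, near the background of 27.6%, and 0 rose in either list. The replication median was -0.7, -0.42 and 0.02 and the mitosis median -0.72, -0.59 and -0.07 on fatty liver arrays 1, 2 and 3. Without array 3 the counts were 34 and 35. For replication they were 6, 5, 5 and 6 without healthy liver array 2 or 3 or fatty liver array 1 or 2. For mitosis they were 6, 4 and 4 without healthy liver arrays 1, 2 and 3, 4 without fatty liver array 1 or 2, and 20 without vehicle array 2 of fatty liver. Orc6, of the origin recognition complex, was 10, 9.93 and 9.97 in healthy liver and 9.12, 9.24 and 9.59 in fatty liver, a fall of 0.65. Cdc20, an activator of the anaphase-promoting complex, was 10.48, 10.45 and 10.51 against 9.4, 9.63 and 10.2, a fall of 0.74. Mki67, the proliferation antigen, was 9.94, 9.89 and 9.93 against 9.69, 9.95 and 10.46 and overlapped between livers (difference 0.12, adjusted p = 0.598). DNA repair genes had the same dependence: 14 of 44 fell and 1 rose (2 without fatty liver array 1). That share of falls is near the 27.6% of all tested genes. The count of falls was 34 without fatty liver array 3, 7, 6 and 5 without healthy liver arrays 1, 2 and 3, and 5 and 6 without fatty liver arrays 1 and 2.

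Of 25 nuclear pore genes 15 fell (9 without healthy liver array 1 or 3 or fatty liver array 1, and 8 without fatty liver array 2). Nup210, a pore protein that differs between cell types, was the single rise, at 1.81, and a second gene rose without fatty liver array 3. Of 76 splicing factors 24 fell (13 without healthy liver array 2, and 15 without healthy liver array 3 or fatty liver array 2) and 3 rose, with a median of -0.22. That share of falls is near the 27.6% of all tested genes. Among 44 proteasome genes 19 fell (12 and 11 without healthy liver arrays 1 and 3), and 4 rose (7 without fatty liver array 3). The rises included Psmb8 (1.08), Psmb9 (1.1) and Psmb10 (1.33), the interferon-induced subunits of the immunoproteasome.

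**Figure D3:**
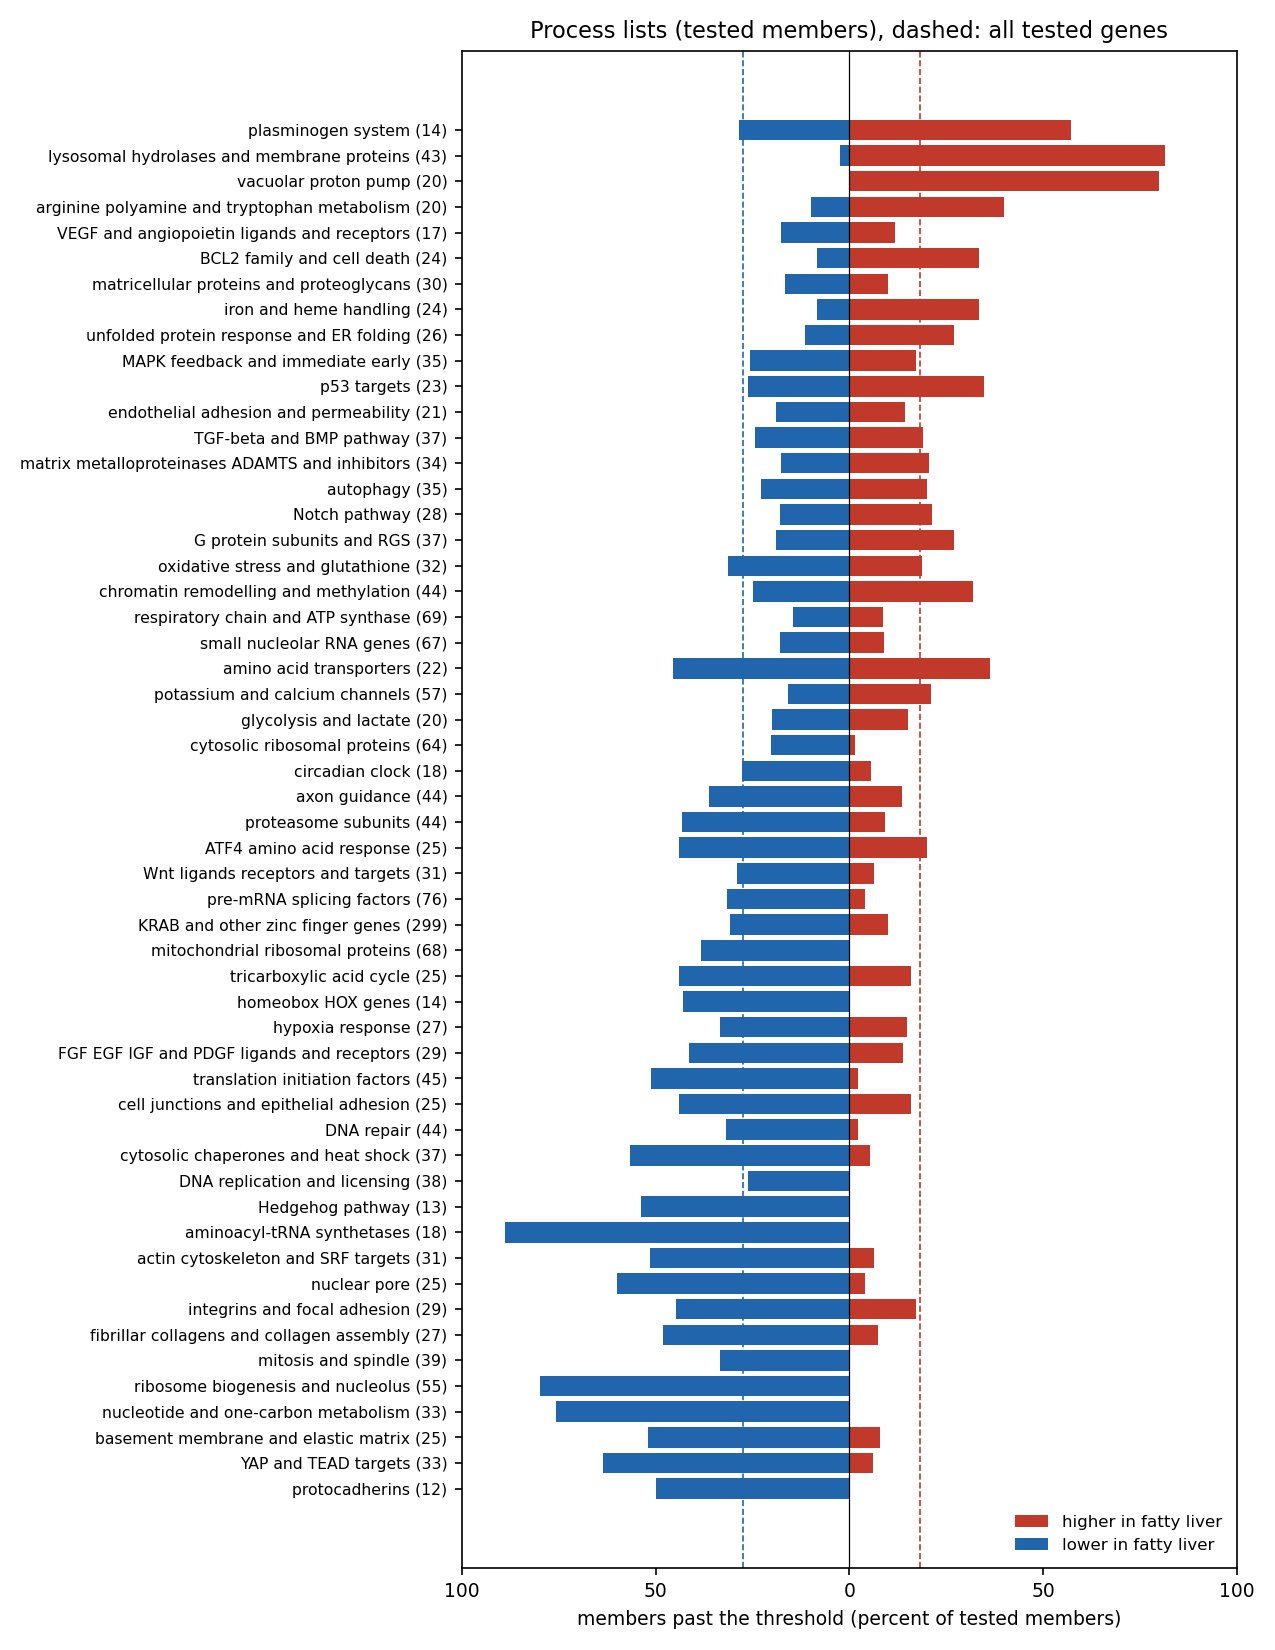
For each process list shown, all with at least 12 tested members, bars show the percent of members past the threshold that were higher (red) or lower (blue) in fatty liver; numbers of tested members are in parentheses and dashed lines mark 18.2% and 27.6%, the shares over all tested genes. Aminoacyl-tRNA synthetases (16 of 18) and ribosome biogenesis (44 of 55) reach furthest left, and lysosomal genes (35 of 43) and the proton pump (16 of 20) furthest right.

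Cytosolic chaperones fell in most cases, while the stress-induced Hsp70 pair rose. Of 37 genes 21 fell (11 without healthy liver array 2 or 3, and 13 and 12 without fatty liver arrays 1 and 2) and 2 rose. Hspa1a was 8.21, 7.96 and 7.85 in healthy liver and 11.5, 11.42 and 11.32 in fatty liver. Its 3 fatty liver values lay close together, and Hspa1a rose by 3.41 (SE 0.32, adjusted p = 4.53e-05), a 10.6-fold difference that passed with averaging (0.0295). Hspa1b was 7.38, 7.13 and 7.27 against 10.53, 10.52 and 10.36 and rose by 3.21, but the sequences of this pair are nearly identical and their probes may not separate them. Hspb8, a small heat shock protein of chaperone-assisted autophagy, was 10.26, 10.28 and 10.23 against 8.82, 8.95 and 9.51, a fall of 1.17. Cct3, a chaperonin subunit that folds actin and tubulin, fell by 0.55.

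The amino acid response driven by ATF4 also split. Of 25 genes 11 fell and 5 rose, with a median of -0.2. Chac1, which degrades glutathione, was 7.5, 7.65 and 7.53 in healthy liver and 6.54, 6.64 and 6.6 in fatty liver, a fall of 0.97. Slc7a11, the cystine importer, was 5.76, 6.07 and 6.1 against 10.35, 9.81 and 7.84, a rise of 3.35 (SE 0.61, adjusted p = 0.00193) with the lowest fatty liver value on array 3. Atf3 rose by 1.35.

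Of 22 amino acid transporters 8 rose and 10 fell, with a median of -0.09. Slc16a10, a carrier of aromatic amino acids, was 5.35, 5.49 and 5.48 in healthy liver and 8.14, 8.72 and 8.4 in fatty liver. It rose by 2.98 (SE 0.23, adjusted p = 2.08e-05, and 0.0287 with averaging). Slc43a2 rose by 1.44 and Slc7a7, an exporter of cationic amino acids, by 1.16. The falls were smaller and included the neutral amino acid importers Slc1a4 (0.89) and Slc1a5 (0.61) and Slc7a6 (0.73). In arginine, polyamine and tryptophan metabolism, 8 of 20 genes rose and 2 fell (1 without fatty liver array 2, and 4 without fatty liver array 3). Arg1, which splits arginine to ornithine, was 5.9, 5.65 and 5.73 against 9.23, 9.35 and 7.76 and rose by 3.02, whereas Odc1, the next enzyme towards polyamines, fell by 0.35.

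Central carbon metabolism was mixed. Of 25 tricarboxylic acid cycle genes 11 fell (6 without any 1 of the healthy liver arrays or fatty liver array 1 or 2), among them Pdhx (0.53) and Dld (0.54) of the pyruvate dehydrogenase complex. The 4 rises, Ogdh (0.36) among them, became 2 without any of 9 arrays, all those other than vehicle array 2 of each liver and fatty liver array 1 under anti-VEGF. Of 20 glycolysis genes, 3 rose and 4 fell (10 without fatty liver array 3, 2, 2 and 1 without healthy liver arrays 1, 2 and 3, and 1 and 0 without fatty liver arrays 1 and 2). Both shares are below the 18.2% higher and 27.6% lower of all tested genes. Pfkfb3, which makes the activator of phosphofructokinase, rose by 1.98.

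Lysosomal hydrolases and membrane proteins, which break down lipid, protein and glycans taken up by the cell, mostly rose. Of 43 genes 35 rose and 1, the sulfatase Arsa (-0.68), fell (2 genes without fatty liver array 3). The median was 0.59, with 0.55, 0.65 and 0.53 on fatty liver arrays 1, 2 and 3, so array 3 did not stand apart here. With averaging 8 of the 43 passed. Of 20 subunits of the vacuolar proton pump, which acidifies lysosomes, 16 rose and 0 fell, with a median of 0.4, and none passed with averaging. Cln3, a lysosomal membrane protein, was 8.34, 8.3 and 8.47 in healthy liver and 10.18, 10.19 and 9.83 in fatty liver. It rose by 1.7 (SE 0.13, adjusted p = 2.08e-05, and 0.0287 with averaging). Its promoter is shown because it holds the CLEAR motif, in capitals, bound by the lysosomal regulators TFEB and TFE3, at -122 in the 250 bases before the start site (chr7:126583237-126583486, minus strand, RefSeq GRCm38.p6).
Cln3: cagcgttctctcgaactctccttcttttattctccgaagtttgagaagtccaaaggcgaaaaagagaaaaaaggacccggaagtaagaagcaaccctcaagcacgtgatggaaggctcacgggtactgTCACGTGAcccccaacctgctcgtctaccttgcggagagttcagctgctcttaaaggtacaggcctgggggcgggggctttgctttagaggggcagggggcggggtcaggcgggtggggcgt

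The letters searched, TCACGTGA, read the same on both strands and contain the E-box core CACGTG. They occurred in the 300-base window of 5 of 38 lysosomal genes (13.2%) and 3 of 14 proton pump genes (21.4%), against 2.02% of 10386 genes. The holders were Cln3, Ctsa, Ctsd, Gla and Mcoln1, and Atp6v0d1, Atp6v0e and Atp6v1a. Here too a match is no more than that description.

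Neu1, the lysosomal sialidase, was 7.25, 7.24 and 7.38 in healthy liver and 8.71, 8.85 and 8.57 in fatty liver, a rise of 1.42. Hexa rose by 1.2 and Galns by 1.05, both glycan-degrading enzymes, and both passed with averaging. Tcirg1, a pump subunit of osteoclasts and macrophages, was 9.17, 9.26 and 9.25 against 10.73, 10.26 and 10.13, a rise of 1.14. The regulators Tfe3 and Tfeb rose by 0.68 and 0.66, the latter from background. Autophagy genes were mixed, with 7 of 35 higher (11 without fatty liver array 1) and 8 lower (4 without healthy liver array 3, and 5 without fatty liver array 1). These counts are near the 18.2% higher and 27.6% lower of all tested genes.

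**Figure D4:**
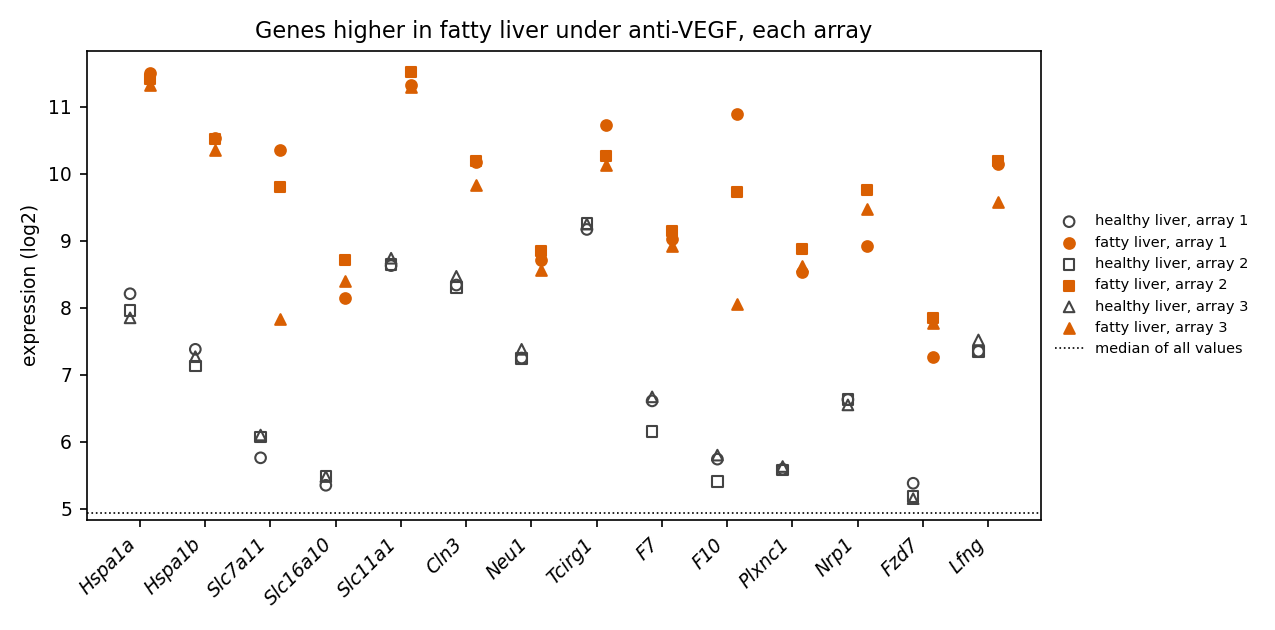
Expression (log2) of 14 genes that were higher in fatty liver is plotted for each healthy liver array (open) and each fatty liver array (filled), with array number by marker shape and the median of all values as a dotted line. Fatty liver array 3 (filled triangle) sits far below the other fatty liver arrays for F10 (8.06 against 10.9 and 9.73) and Slc7a11 (7.84 against 10.35 and 9.81) and close to them for Hspa1a and Slc11a1.

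Genes of the plasminogen and coagulation systems were mostly higher, with 8 of 14 rising, 4 falling and a median of 1.28. F10, coagulation factor X, was 5.74, 5.41 and 5.8 in healthy liver and 10.9, 9.73 and 8.06 in fatty liver, a rise of 3.91 (SE 0.65, adjusted p = 0.0011). F7, which starts the extrinsic pathway, was 6.61, 6.15 and 6.67 against 9.02, 9.14 and 8.92. The fatty liver values of F7 lay together, and it rose by 2.55 (SE 0.22, adjusted p = 3.4e-05, and 0.0287 with averaging). F13a1, the transglutaminase subunit that crosslinks fibrin and is also made by macrophages, was 6.5, 6.48 and 6.5 against 10.14, 9.99 and 8.36, a rise of 3.01. The falls were Plat (1.01), the tissue plasminogen activator, the inhibitor Tfpi (0.89), tissue factor (F3, 0.75) and the serpin Serpinf1 (0.53).

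Among matrix metalloproteinases, ADAMTS proteases and their inhibitors, 7 of 34 rose and 6 fell, where 18.2% of all tested genes rose and 27.6% fell. Mmp8, the neutrophil collagenase, was 6.17, 5.86 and 6.21 in healthy liver and 11.2, 10.5 and 9.41 in fatty liver. It rose by 4.29 (SE 0.51, adjusted p = 0.000155, and 0.0485 with averaging). Mmp13 rose by 2.46, Mmp12 by 2.4 and Mmp27 by 2.39. Matricellular proteins and proteoglycans gave 5 falls and 3 rises (5 without fatty liver array 3) among 30, both below the shares of all tested genes. Thbs1 was up by 3.3, Sdc3 by 2.11 and Tgfbi by 0.98, and Sdc2 was down by 0.96.

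Of 29 growth factors and their receptors 12 fell and 4 rose (2 rises without healthy liver array 2 or fatty liver array 2), where 27.6% of all genes fell and 18.2% rose. Hbegf, a ligand of the EGF receptor, was 9.61, 9.55 and 9.51 in healthy liver and 8.03, 8.53 and 8.47 in fatty liver. Hbegf fell by 1.21 (SE 0.13, adjusted p = 7.55e-05, and 0.0466 with averaging). Igfbp6, which binds insulin-like growth factors, fell by 1.02, Igfbp4 by 0.7 and the receptor gene Met by 0.68. Hgf, the ligand of Met, rose by 2.34 from background, with 4.41, 4.81 and 4.69 against 6.41, 7.34 and 7.19. Nrg1 rose by 2.85, a call lost without healthy liver array 2 (4.85) or fatty liver array 1 (9.83). Of the feedback and immediate early genes of MAPK signalling, 9 of 35 fell (5 without fatty liver array 1) and 6 rose (15 without fatty liver array 3). Both counts are near the shares of all genes. Spry2, a feedback inhibitor of receptor tyrosine kinases, was 8.95, 8.89 and 9 against 8, 8.12 and 8.14 and fell by 0.86 (SE 0.09, adjusted p = 7.16e-05, and 0.0422 with averaging).

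Of 13 Hedgehog pathway genes 7 fell and 0 rose, with a median of -0.38. Dhh, a ligand, was 7.15, 7.17 and 7.17 in healthy liver and 6.05, 6.15 and 6.45 in fatty liver, a fall of 0.95. The signal transducer Smo was 10.12, 10.01 and 10.07 against 9, 8.98 and 9.79 and fell by 0.81. The receptor Ptch1 fell by 0.79 and the transcription factor Gli3 by 0.96. For Smo and Ptch1 most of the fall came from fatty liver arrays 1 and 2.

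Wnt genes gave 9 falls (14 without fatty liver array 3) and 2 rises (1 without healthy liver array 1 or 3 or fatty liver array 2) among 31. Rnf43, which removes Wnt receptors from the surface, fell by 1.03. Fzd7, a Wnt receptor, was 5.38, 5.18 and 5.15 in healthy liver and 7.27, 7.85 and 7.77 in fatty liver, a rise of 2.39 (SE 0.3, adjusted p = 0.000197, and 0.0464 with averaging). Of 28 Notch genes 6 rose and 5 fell (3 without healthy liver array 2 or 3 or fatty liver array 2, and 8 without fatty liver array 3). Lfng, which modifies Notch receptors with sugar, rose by 2.57. Among TGF-beta and BMP genes 7 of 37 rose and 9 fell. These counts, and the falls among Wnt genes, are near the 18.2% and 27.6% of all genes. The median was 0.01 and changed sign with the scaling, to -0.02 with each array centred on its median. Tgfbr1 rose by 1.27 and Tgfb1 by 0.74, while Tgfbr3 fell by 0.94, Bmpr1a by 0.97 and Fstl3 by 1.22.

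Axon guidance genes, which also act in vessels and immune cells, gave 16 falls (10 without healthy liver array 2 or fatty liver array 2) and 6 rises among 44. Plxnc1, a semaphorin receptor, was 5.59, 5.58 and 5.63 in healthy liver and 8.54, 8.88 and 8.62 in fatty liver. It rose by 3.08 (SE 0.24, adjusted p = 2.22e-05, and 0.0287 with averaging). Nrp1, a coreceptor of semaphorins and VEGF, was 6.63, 6.63 and 6.55 against 8.92, 9.76 and 9.48, a rise of 2.78. Efna1 fell by 1.1, Plxna4 by 1.06 and Sema4b by 1.06.

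In iron and heme handling 8 of 24 genes rose. Of the 2 falls none remained a call without any 1 of the healthy liver arrays, 1 did without fatty liver array 1 or 2, and there were 5 without fatty liver array 3. Slc11a1, the metal exporter of phagosomes, was 8.63, 8.65 and 8.74 in healthy liver and 11.32, 11.52 and 11.3 in fatty liver, a rise of 2.71 (SE 0.22, adjusted p = 2.8e-05, and 0.0287 with averaging). Hfe, a regulator of iron uptake, rose by 2.25. Oxidative stress genes gave 10 falls and 6 rises among 32, near the 27.6% and 18.2% of all genes. Gpx8 and Prdx3, both peroxidases, were at -0.91 and -0.43 and Gstm1 and Nfe2l2 at 1.2 and 0.85.

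Against 27.6% falls and 18.2% rises over all genes, hypoxia genes gave 9 falls and 4 rises among 27, and the falls depended on single arrays. They were 4, 5 and 4 without healthy liver arrays 1, 2 and 3, 4 and 5 without fatty liver arrays 1 and 2, and 14 without fatty liver array 3, and there were 2 rises without healthy liver array 1 or 2. Egln3, an oxygen-sensing hydroxylase, fell by 0.56 and Pfkfb4 rose by 0.62. Of 57 potassium and calcium channel genes, 12 rose, near the 18.2% of all genes, and 9 fell (5 without fatty liver array 2, and 16 without fatty liver array 3). Kcnk6, a background potassium channel, rose by 2.4, and Kcnmb1, a subunit of calcium-activated potassium channels of smooth muscle, fell by 0.94, both also with averaging (adjusted p = 0.0287 and 0.0464).

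Cell death and arrest genes changed in both directions. Of 24 genes of the BCL2 family and cell death, 8 rose and 2 fell. Ripk3, the kinase of necroptosis, was up by 2.98 and the BH3-only protein Bid by 1.6, whereas the necroptosis effector Mlkl fell by 0.41. Of 23 p53 targets, 8 rose and 6 fell (3 without healthy liver array 2 or fatty liver array 2). Their share of falls is near the 27.6% of all tested genes, of which 18.2% rose. Btg2, an antiproliferative gene, rose by 3.43 and Trp53inp1 by 1.84, while Phlda3 fell by 0.82 and Bbc3 by 0.63.

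Chromatin genes gave 14 rises and 11 falls among 44 (5 and 7 falls without healthy liver arrays 2 and 3, and 7 and 4 without fatty liver arrays 1 and 2). Their share of falls is near the 27.6% of all tested genes, of which 18.2% rose. Nsd1, a histone H3 methyltransferase, was 5.75, 6.16 and 6.3 in healthy liver and 9.07, 9.2 and 8.78 in fatty liver, a rise of 2.94. The DNA methyltransferase Dnmt3a rose by 0.58 and Dnmt3b fell by 0.64. Of 299 zinc finger genes 92 fell (52, 50 and 48 without healthy liver arrays 1, 2 and 3, and 45 and 51 without fatty liver arrays 1 and 2) and 30 rose, with a median of -0.23. That count of falls is near the 27.6% of all tested genes. Of 14 HOX genes 6 fell, including Hoxd8, Hoxd9 and Hoxd10 by 0.69, 0.82 and 0.7. Of 18 clock genes 5 fell (3 without fatty liver array 1 or 2), near the 27.6% of all genes. Cry2 fell by 0.95 and Nr1d1 by 0.68.

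**Figure D5:**
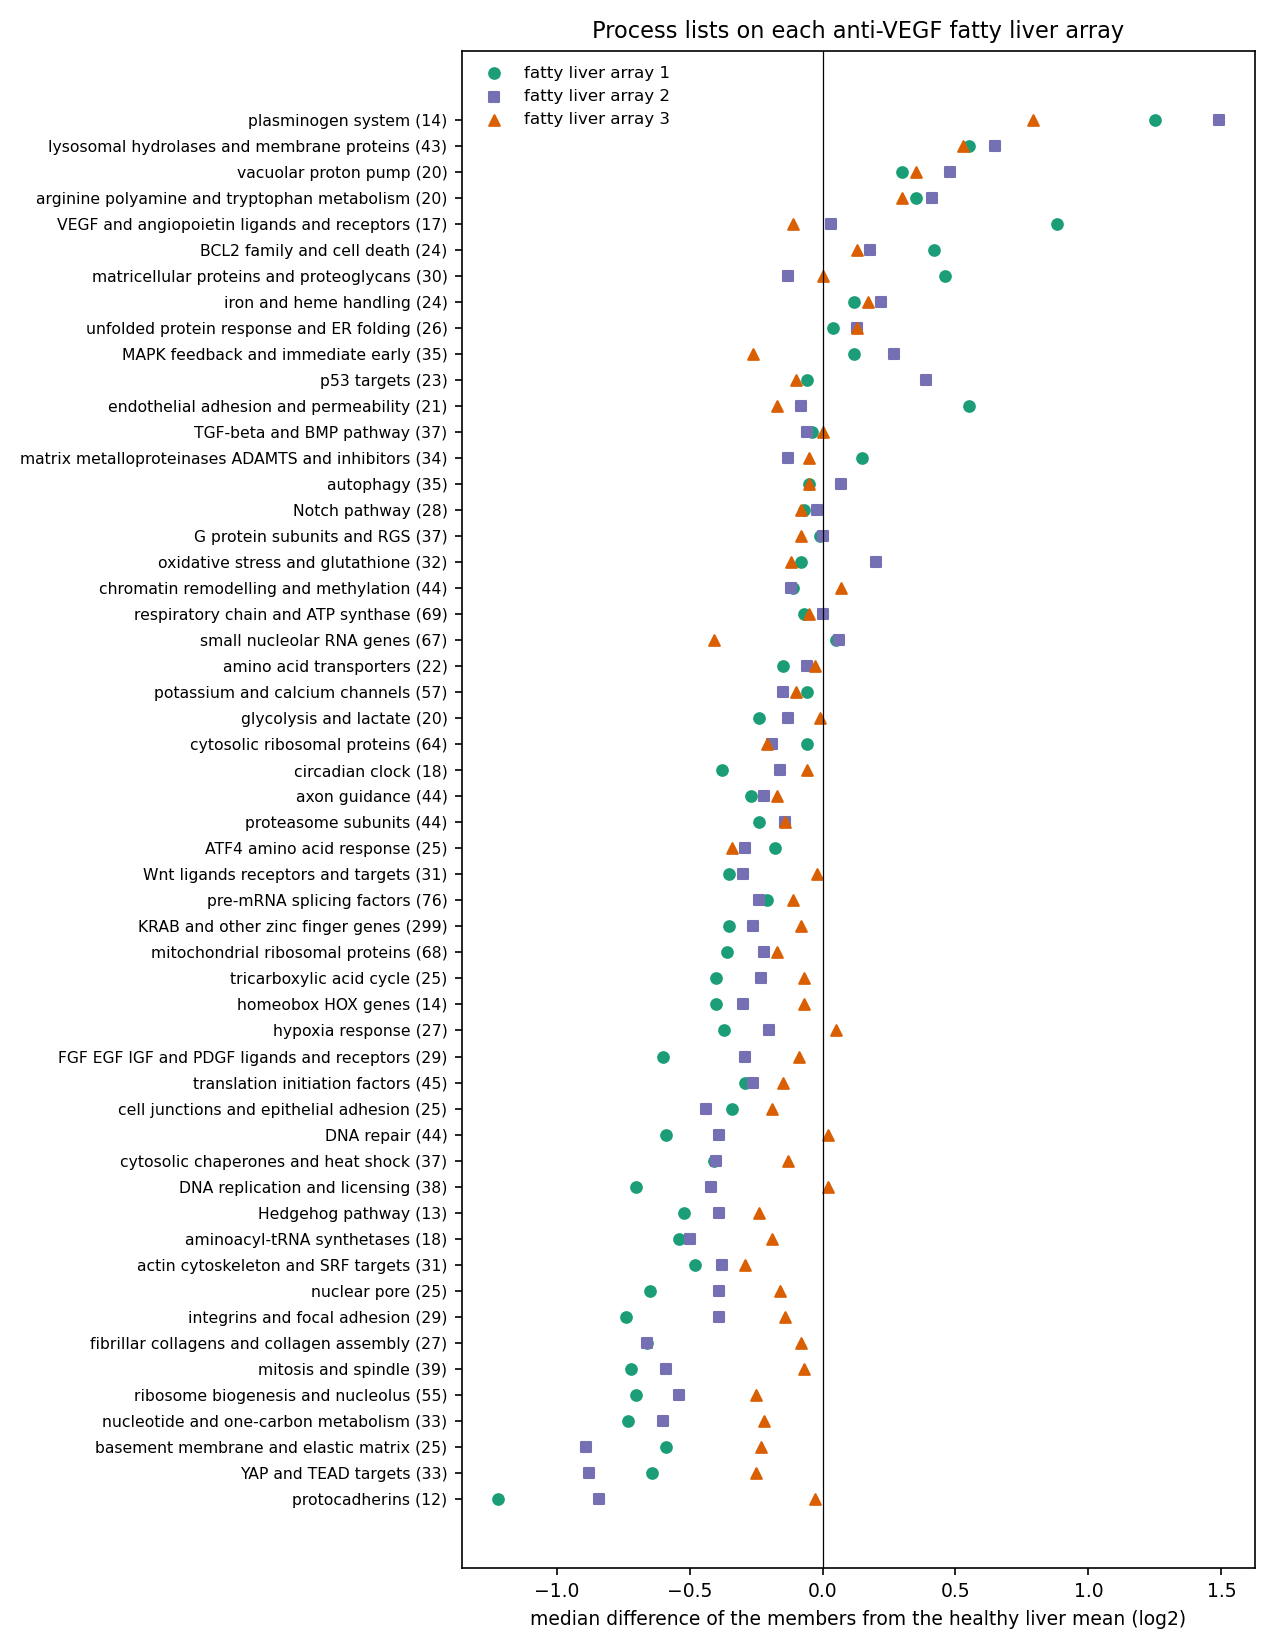
For each process list shown, all with at least 12 tested members, the median difference of its members from the healthy liver mean (log2) is plotted separately for fatty liver arrays 1, 2 and 3. Array 3 is nearer to 0 for mitosis (-0.07 against -0.72 and -0.59) and collagens (-0.08 against -0.66 and -0.66) and beside the others for lysosomal genes (0.53 against 0.55 and 0.65).

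The largest rises included genes of myeloid cells. Sirpb1c, a myeloid signal regulatory protein, was 5.2, 5.56 and 5.13 in healthy liver and 10.28, 9.74 and 9.29 in fatty liver, a rise of 4.47 (SE 0.42, adjusted p = 4.52e-05, and 0.031 with averaging). Adgre4, an adhesion receptor of myeloid cells, rose by 4.19 from background, the lectin Clec4d by 4.06 and Acod1, which makes itaconate, by 4.05. Bex6, a gene of the brain-expressed X-linked family, was 5.25, 5.18 and 5.08 against 9.18, 8.89 and 8.63, a rise of 3.73 (SE 0.16, adjusted p = 2e-06, and 0.0243 with averaging). Sorl1, a sorting receptor, rose by 3.83, and the guanine deaminase Gda by 3.86. Pou2f2, a lymphoid and myeloid transcription factor, rose by 2.84, and Cyp27a1, a sterol 27-hydroxylase, by 2.17, both with averaging too (0.0243 and 0.0287).

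The same liver contrast in the vehicle arrays, which compares other arrays, gave 2550 rises and 4045 falls. Both contrasts came from the same fit and share the spread estimate of each gene, so their calls are not independent. Of the rises under anti-VEGF 2086 were also called under vehicle (86.5% of the anti-VEGF calls and 81.8% of the vehicle calls), and of the falls 2903 (79.1% and 71.8%). In the opposite direction 1 of the rises and 3 of the falls were called. The test of the difference between both liver contrasts gave 0 genes at an adjusted p of 0.05 in limma and 677 (5.1%) at an unadjusted p of 0.05. It gave 1477 at the adjusted p of 0.05 when arrays were weighted by how closely they followed their group. Those weights were 0.197, 3.8 and 0.137 on fatty liver anti-VEGF arrays 1, 2 and 3, so array 2 carried most of that group. Cfap57 fell by 1.68 under anti-VEGF and had a difference of -0.61 under vehicle, an interaction of -1.08 (SE 0.16) with an adjusted p of 0.278, the smallest that any gene reached. Sele, with -1.99 and -0.88, and Fabp4, a fatty acid carrier of capillaries and adipocytes, with -1.22 and -0.11, had adjusted interaction p-values of 0.964 each. Under vehicle Osr2 (-1.58), Hspg2 (-1.15) and Serpinh1 (-1.04) were at least as low as under anti-VEGF.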

How the data were processed

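Tumour RNA of 12 arrays was analysed from the authors' deposited value table, 1 column per array with 0 columns of another series. The deposited values read as log2 expression from their range; per the submitters' processing notes Affymetrix Expression Console was used, while the sources used here give neither its version nor the normalization, summarisation or build. Of 41345 rows, 23521 had 1 gene symbol in the platform annotation, 1814 several and 16010 none; 23328 of the first matched RefSeq gene numbers, which changed 0 symbols. The row with the highest mean stood for each of 1082 genes with several rows. All 12 arrays entered 1 limma fit (version 3.58.1, R 4.3.3) with 4 group means and 8 residual degrees of freedom. Benjamini-Hochberg adjustment ran over 13286 genes. The pipeline was tested on simulated data with independent arrays and equal spread in all groups. That setting lacks the near-identical arrays and unequal spread of the real data, so it cannot show the error rate here. The number of arrays limits the precision, and p-values measure the spread between these arrays. Named genes were the 20 largest rises and falls past the threshold (without predicted, clone-named and segment-family symbols), the 10 smallest p-values in each direction, up to 4 per direction of each gene list by p, and a fixed set. Members and lists were chosen with earlier results of these data known, and are described by counts without a test. Markers that are at background, the genes named for their promoter motifs, and Esf1 outside its list stand beside that rule. Alternatives changed the filter, row choice, scaling, arrays fitted, array weights, prior, replicate block and fold minimum, averaged near-identical arrays, or left out each array. The members of 1 gene list are not reported here.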

Additional observations from a re-analysis of the deposited data

How the results depend on the processing

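The main counts, 2412 rises and 3672 falls, stayed within 1.5 times under no filter on level (2391 and 3307), the limit passed on 6 arrays (2351 and 3691), the mean of a gene's rows (2384 and 3611), quantile normalization (2450 and 3798), median centring (2236 and 4650), only the 6 anti-VEGF arrays (2155 and 2953) and a trended robust prior (2425 and 3729). They moved further when near-identical arrays were averaged (487 and 23), when only the healthy liver anti-VEGF arrays were (1057 and 287; only the vehicle pairs gave 2196 and 3046; both chosen after seeing the data), with array weights (3666 and 6218, and 1477 genes with a different liver contrast between treatments against 0) and with a minimum difference of 1 (1235 and 220). Leaving out 1 array gave 1953 to 2650 rises and 2312 to 4825 falls, and 0 genes with a different contrast each time. Of 456 named genes, 374 lost their call with averaging and the other 82, some not called at first, stayed on their side of the threshold. Without any 1 of the healthy liver anti-VEGF arrays 38, 40 and 37 lost it, and without any 1 of the fatty liver anti-VEGF arrays 36, 41 and 8. The differences that changed sign belonged to genes that passed in no direction: Cpa3 (0.13), Slc4a1 (-0.03) and Xist (0.14) with array weights, Vim (0.07) with the mean of rows, Mki67 (-0.1 to 0.29) and Slc4a1 (-0.05 to 0.15) with 1 array left out. The cause was not tested.

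Replicate numbers were checked between the anti-VEGF groups, where deviations of same-numbered arrays correlated at 0.0193, -0.0246 and -0.0225. The healthy liver arrays differ so little that this cannot show whether the numbers pair the arrays. Vehicle arrays were not compared in this way, and vehicle array 2 stood apart in both livers. A fit with the numbers as a replicate block gave 0 genes that differed between the contrasts, and in it 2441 genes were higher, 3818 lower, and 7 named genes lost their call. The files give no detection call, so differences from levels near 4.93 are the least certain.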

Other observations

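Chromosome 12 held many falls, as a description without a test that was chosen after its values were seen. Of its 465 tested genes 208 (44.7%) were lower and 12.5% higher, against 27.6% and 18.2% of all genes, with a median difference of -0.3. The medians were -0.34, -0.3 and -0.16 on fatty liver arrays 1, 2 and 3, and in the vehicle comparison 43% of its genes were lower. The count fell to 138 and 130 without fatty liver anti-VEGF arrays 1 and 2. It fell to 142, 140 and 137 without healthy liver anti-VEGF arrays 1, 2 and 3, and was 244 (52.5%) without fatty liver anti-VEGF array 3. Falls over all tested genes moved in the same direction in these fits, from 3672 to 2410, 2353, 2410, 2314, 2312 and 4825 in that order.

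Gene families formed by the stem of the symbol were chosen after their values were seen. Of 14 intraflagellar transport genes (Ift) 9 fell and 1 rose, with a median of -0.58, but 3 and 4 fell without fatty liver anti-VEGF arrays 1 and 2. Of 15 cilia and flagella associated genes (Cfap) 8 fell and 1 rose (6 to 10 falls with 1 array left out). RNA polymerase subunits (Polr) gave 14 falls and 0 rises among 26 (9 without healthy liver anti-VEGF array 3), and transfer RNA methyltransferases (Trmt) 7 falls and 0 rises among 14 (7 to 9). All 12 toll-like receptor genes (Tlr) rose, with a median of 2.41, in every fit with 1 array left out.

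Mast cell markers varied within fatty liver. The list mean was 8.03, 8.09 and 8.05 in healthy liver and 7.99, 8.81 and 5.96 in fatty liver, and 0 of 12 members passed in limma. Cpa3, a mast cell protease, was 11.92, 11.95 and 11.89 against 11.67, 12.16 and 9.48. Of 67 small nucleolar RNA genes 6 rose (19 without fatty liver array 3) and 12 fell (6, 7 and 6 without healthy liver arrays 1, 2 and 3). With all arrays, both shares are below the 18.2% higher and 27.6% lower of all tested genes.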
